A study of Rattus norvegicus with 6 samples.

Results

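The genes described here encode emerin (Emd), the LEM proteins LAP2 (Tmpo), LEM2 (Lemd2) and MAN1 (Lemd3), their DNA-binding partner BAF (Banf1), the lamins (Lmna, Lmnb1, Lmnb2) and the SUN proteins (Sun1, Sun2). The 10 genes were chosen by name around Emd, which was selected on its high value after stimulation in these same libraries. Of them, 9 have a row under their symbol among 32883 gene rows, and Lemd2 was not analysed here. The libraries come from polyadenylated RNA of hippocampal cells that were taken from Wistar rat pups on postnatal day 0 and cultured. On days 13 to 15 in vitro, 3 cultures received 50 µM forskolin, 50 nM rolipram and 200 µM picrotoxin, a mixture that induces chemical long-term potentiation (cLTP), and 3 cultures received the solvent DMSO. Forskolin activates adenylyl cyclase, rolipram inhibits cyclic AMP phosphodiesterases and picrotoxin blocks GABA-A receptors, so the mixture raises cyclic AMP and neuronal activity together and their separate effects cannot be told apart. No library has a gene deleted or overexpressed by its labels, and the sources used here do not give the hour of harvest.

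The nuclear lamina is a meshwork of A-type lamins (from Lmna) and B-type lamins (from Lmnb1 and Lmnb2) under the inner nuclear membrane. LEM proteins sit in or near that membrane and share a fold, the LEM domain, that binds BAF and through it chromatin, and SUN proteins cross the same membrane and link the lamina to the cytoskeleton by way of nesprins. Loss of emerin or alterations of A-type lamins cause Emery-Dreifuss muscular dystrophy in humans, and in mice the loss of B-type lamins disturbs the migration of neurons in the developing brain.

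The libraries held 10668973 to 12776185 reads assigned to genes, and a member gathered 88 to 2173 reads in a library. Values are normalised read counts, which the authors did not divide by transcript length, so levels are compared within a gene and not between genes. Neuron markers summed to 50197 to 63284 in cLTP cultures and 50710 to 61235 in DMSO cultures, with 0 of 7 markers past the threshold in limma. Prox1, Zbtb20, Neurod2, Neurod6 and Lhx2, listed for hippocampal neurons after the data were seen, were all present (sums of 4558 to 4833 in cLTP and 4300 to 4928 in DMSO cultures). How specific these genes are to such neurons was not tested. With culture number as a block, Snap25, Gad1 and Lhx2 were higher and Neurod6 lower, and of 6 astrocyte markers 2 were higher and 1 lower. The block also called Olig2 higher among 6 oligodendrocyte lineage markers and Pdgfrb lower among 7 mural and fibroblast markers. It called 0 of 5 microglia and 0 of 3 endothelial markers. Astrocyte markers were abundant as well, with sums of 134893 to 191084 in cLTP cultures and 116555 to 183905 in DMSO cultures. Culture 3 stood apart in both groups: microglia markers summed to 462 in cLTP 3 and 436 in DMSO 3 and to at most 6.66 elsewhere, and its astrocyte sums were the lowest of each group. In such mixed cultures a change in the number of cells of a type and a change of RNA per cell cannot be told apart.

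Promoters are shown first because that of Emd held more matches of a short motif, TGACG, than those of the other members. Whether these matches bear on the level of Emd was not tested. Cyclic AMP acts on many promoters through CREB, a factor that binds the cyclic AMP response element (CRE), TGACGTCA, and its shorter core TGACG. In windows from 250 bases before to 50 bases after the annotated start (RefSeq, build GRCr8, 1 start per row), TGACG was searched on both strands, and a full CRE counts as 2 cores. Below, capitals mark TGACG or its reverse complement CGTCA, and CCAAT or its reverse complement ATTGG. Emd is followed by 2 other nuclear envelope genes that rose after cLTP, Spag4 and Ranbp2, and by Lmnb2, the member with the largest fitted decrease.
Emd, chrX:157190188-157190487, plus strand: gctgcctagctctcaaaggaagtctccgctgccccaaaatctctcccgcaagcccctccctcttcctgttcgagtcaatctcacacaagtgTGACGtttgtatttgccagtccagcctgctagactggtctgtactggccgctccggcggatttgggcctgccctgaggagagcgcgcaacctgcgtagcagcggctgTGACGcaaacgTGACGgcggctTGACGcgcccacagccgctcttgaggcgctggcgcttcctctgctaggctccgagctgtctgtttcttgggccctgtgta
Spag4, chr3:165040929-165041228, plus strand: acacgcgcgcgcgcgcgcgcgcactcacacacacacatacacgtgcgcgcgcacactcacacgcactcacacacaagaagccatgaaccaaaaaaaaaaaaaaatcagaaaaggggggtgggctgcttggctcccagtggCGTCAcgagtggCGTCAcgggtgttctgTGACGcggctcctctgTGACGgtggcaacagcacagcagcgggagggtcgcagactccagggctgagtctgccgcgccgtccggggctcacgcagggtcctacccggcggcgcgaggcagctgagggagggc
Ranbp2, chr20:26985064-26985363, plus strand: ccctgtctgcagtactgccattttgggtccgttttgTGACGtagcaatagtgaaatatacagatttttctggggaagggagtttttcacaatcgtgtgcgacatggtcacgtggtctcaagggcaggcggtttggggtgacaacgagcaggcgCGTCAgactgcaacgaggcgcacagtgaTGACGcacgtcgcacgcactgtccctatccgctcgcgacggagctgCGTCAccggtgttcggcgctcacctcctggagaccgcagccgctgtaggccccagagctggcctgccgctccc
Lmnb2, chr7:9443058-9443357, plus strand: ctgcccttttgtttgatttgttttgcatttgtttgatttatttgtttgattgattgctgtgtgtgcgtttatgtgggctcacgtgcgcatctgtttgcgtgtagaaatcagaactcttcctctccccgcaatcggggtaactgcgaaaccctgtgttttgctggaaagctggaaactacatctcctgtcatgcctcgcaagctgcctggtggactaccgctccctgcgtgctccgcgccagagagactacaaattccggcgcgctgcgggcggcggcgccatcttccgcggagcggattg

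The Emd window held 4 TGACG cores, all on the gene's own strand. Counted from the first base of the annotated transcript, the cores begin at -159, -52, -41 and -30, so that the 3 nearest the start follow each other at steps of 11 bases. At least 4 cores were found in 79 of 33469 promoter windows (0.236%), at least 1 in 21.2%, and 3 cores, on either strand, in a row at steps of 11 bases in 1 window, that of Emd. This spacing was noticed after the sequence was seen. The Emd window held 21 CpG, against a median of 7 over all windows and of 20 over the 10596 tested genes with a single promoter row. Of these 10596 genes, 7356 had 0 cores and 47 had 4 or more. Shares given below for other motifs are of all windows, whether or not the gene was tested here. None of the 9 members with a promoter in the table held a full CRE, which 1.83% of all windows did. Lemd3, Banf1 and Sun1 had 1 core each, and Tmpo, Lmna, Lmnb1, Lmnb2 and Sun2 had none. CCAAT boxes, found in 37.5% of all windows, stood in those of Tmpo, Lemd3, Banf1, Lmnb1 and Sun2, and the AP-1 site TGANTCA (7.33% of windows) in those of Banf1 and Lmna. The GC box GGGCGG (33.1% of windows) matched Tmpo, Lemd3, Lmna, Lmnb1, Lmnb2 and Sun2, the element TTTGAA (18.3%) Banf1, Lmnb1 and Sun2, and the E-box CACGTG (6.42%) Lmnb1 and Lmnb2. No member window matched the NBRE AAAGGTCA (1.43% of windows), the EGR site GCGGGGGCG (2.73%), within which a GC box can overlap, or the CArG box bound by SRF (1.64%). These are matches of letters in a build other than that of the counts (rn6), and binding was not measured.

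**Figure D1:**
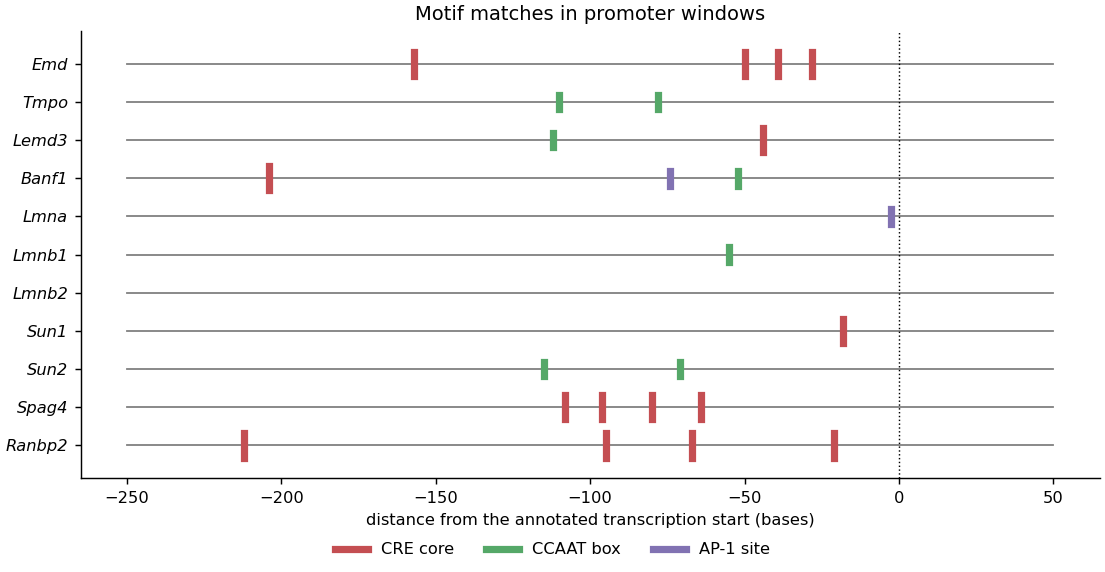
Positions of TGACG cores (red), CCAAT boxes (green) and AP-1 sites (purple) in the promoter windows of the 9 members with a promoter and of Spag4 and Ranbp2; the horizontal axis is the distance in bases from the annotated transcription start (dotted line). Emd has 4 cores, the 3 nearest the start beginning at -52, -41 and -30, and no other member has more than 1.

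Emerin is an integral protein of the inner nuclear membrane that binds BAF, lamins and several regulators of transcription. Emd (ENSRNOG00000058882, on chromosome X in GRCr8) had normalised read counts of 2004, 2151 and 2211 in cLTP cultures 1, 2 and 3, against 318, 270 and 260 in DMSO cultures 1, 2 and 3. The groups lay far apart, with little spread within either. The mean was 2122 ± 106 in cLTP cultures and 282 ± 31.0 in DMSO cultures (SD, n = 3 each), a 7.51-fold difference on the log2(value + 1) scale (log2 fold change 2.91, SE 0.09). Between libraries of the same number, a pairing that the labels do not give, the log2 difference was 2.65 in culture 1, 2.99 in culture 2 and 3.08 in culture 3. Emd stood at rank 71 of 17315 genes ordered from the largest increase. Since Emd was picked for this difference, these values are a description and no test is given for it. Leaving out 1 library at a time kept the log2 fold change between 2.85 and 3.00.

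**Figure D2:**
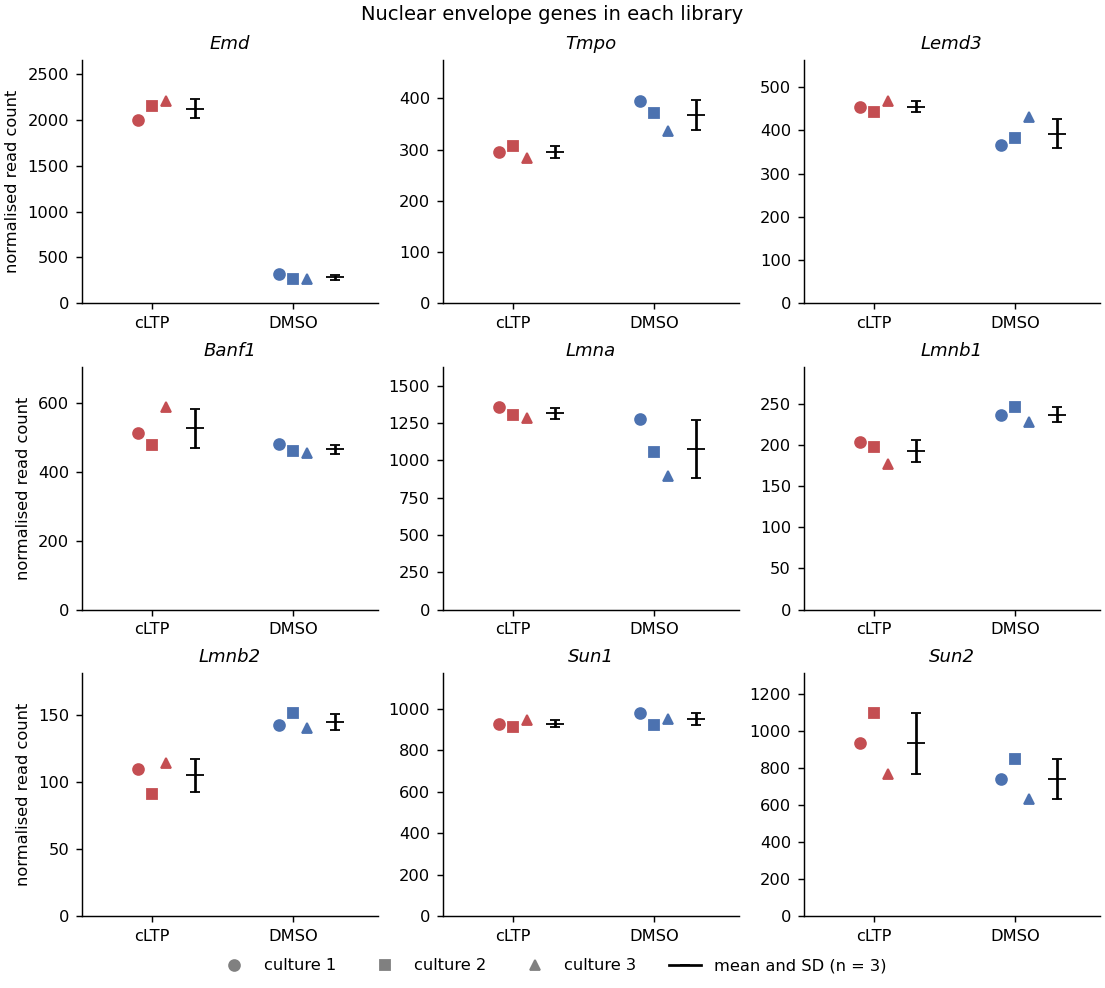
Normalised read counts of the 9 members in each library, cLTP on the left and DMSO on the right of each panel, with symbols for culture number and black bars for mean and SD (n = 3). Vertical axes start at 0 and differ between panels. Emd lies between 2004 and 2211 in cLTP cultures and between 260 and 318 in DMSO cultures, whereas the other members have folds between 0.724 and 1.26.

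The other 8 members differed little by comparison, between 0.724-fold and 1.26-fold. Their adjusted p-values below are those of the limma fit over all 17315 genes (Benjamini-Hochberg), and are given to place each gene in that fit, since the set was assembled with results of this contrast known. Of these 8 members 0 passed an adjusted p of 0.05, where 9.02% of all tested genes passed, 5.71% higher (988 genes) and 3.31% lower (573 genes). Scaling the libraries to equal totals turned that split to 823 higher and 1322 lower genes, with 0 of the 8 members higher and 3 lower, and quantile normalization gave 897 and 799, with 0 of the 8 called. At an unadjusted p under 0.05 in limma there were 2 higher and 3 lower of the 8; edgeR called 0 higher and 1 lower, and DESeq2 called 0. In 2 of the 8 all cLTP libraries lay above all DMSO libraries (Lemd3, Lmna), as in 15.0% of tested genes, and in 3 all lay below (Tmpo, Lmnb1, Lmnb2), as in 13.3%. The median log2 fold change was 0.17 over the 9 members and 0.07 without Emd, against 0.00 over all genes tested.

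When libraries were paired by number, each of the 8 other members differed one way in all 3 pairs, as did 52.8% of tested genes. In the fit with culture number as a block, 3 of the 8 were higher (Lemd3, Lmna, Sun2) and 3 lower (Tmpo, Lmnb1, Lmnb2), where 12.9% of all genes were higher and 10.7% lower. The pairing of cultures by number rests on the data and not on the labels, and the data mainly set culture 3 apart. With group means removed, same-numbered libraries correlated at 0.22 and 0.30 in cultures 1 and 2, and unlike numbers of these cultures at 0.19 and 0.16. The pairing of cultures 1 and 2 is thus weakly founded, and Sun1 was at 924 in cLTP 1 but 920 in DMSO 2.

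Among the LEM proteins, Tmpo and Lemd3 lay on opposite sides of their controls. Tmpo (ENSRNOG00000008797), which encodes the LAP2 isoforms that bind lamins and chromatin, was at 295, 308 and 284 in cLTP cultures, against 396, 371 and 336 in DMSO cultures. All cLTP values were below all DMSO values (0.806-fold, log2 fold change -0.31, SE 0.09, adjusted p = 0.0834, or 0.00681 with the block). Lemd3 (ENSRNOG00000024027), whose product MAN1 binds receptor-activated SMADs and dampens TGF-beta and BMP signalling, was at 454, 443 and 469 in cLTP cultures and 365, 382 and 430 in DMSO cultures. The groups did not overlap (1.16-fold, log2 fold change 0.22, SE 0.09, adjusted p = 0.206, or 0.0362 with the block). Lemd3 overlaps Msrb3, a protein-coding gene, in the GRCr8 annotation, and the sources used here do not say how shared reads were assigned; Tmpo overlaps a pseudogene, and Lmnb2 and Sun1 each overlap a long noncoding RNA gene. Banf1 (ENSRNOG00000020460), the source of BAF, was at 512, 478 and 587 in cLTP cultures and 479, 459 and 454 in DMSO cultures. Its groups overlapped, culture 3 showed the widest difference (log2 0.37, against 0.09 and 0.06 in cultures 1 and 2), and it did not pass with or without the block (adjusted p = 0.345 and 0.104).

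The A-type and B-type lamins lay on opposite sides. Lmna (ENSRNOG00000019638), the source of lamins A and C, was at 1357, 1305 and 1281 in cLTP cultures and 1280, 1054 and 895 in DMSO cultures. The cLTP libraries were close to each other, the lowest of them was just above DMSO 1, and the spread lay in the controls (coefficient of variation 2.97% in cLTP and 17.9% in DMSO cultures). The difference was 1.23-fold (log2 fold change 0.30, SE 0.12, adjusted p = 0.185, or 0.00421 with the block), with log2 differences of 0.09, 0.31 and 0.52 in cultures 1, 2 and 3. The 7 mural and fibroblast markers summed to 1352 to 1449 in cLTP cultures and 1536 to 1724 in DMSO cultures, a gap that came from Pdgfrb, a receptor of mural cells (94.2 ± 24.7 in cLTP and 329 ± 56.2 in DMSO cultures, 0.284-fold, adjusted p = 0.00106). Without Pdgfrb the sums overlapped, at 1286 to 1345 in cLTP and 1269 to 1365 in DMSO cultures, and the part of these cells in the level of Lmna was not tested.

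Lmnb1 (ENSRNOG00000013774), which encodes lamin B1, was at 203, 197 and 177 in cLTP cultures, against 236, 246 and 227 in DMSO cultures. The groups did not overlap (0.813-fold, log2 fold change -0.30, SE 0.10, adjusted p = 0.116, or 0.0230 with the block). Lmnb2 (ENSRNOG00000025742), which encodes lamin B2, was at 109, 91.2 and 114 in cLTP cultures and 143, 151 and 140 in DMSO cultures. It had the lowest read numbers of the members, 88 to 112 reads per cLTP library and 142 to 172 per DMSO library, and again every cLTP value was below every DMSO value. Its difference was the largest after Emd (0.724-fold, log2 fold change -0.47, SE 0.13), and it was close to the threshold (adjusted p = 0.0574, or 0.00923 with the block and 0.0452 in edgeR). The 2 B-type lamins and Tmpo thus formed the group of members whose cLTP libraries all lay below DMSO.

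The SUN proteins differed from each other in how closely the groups matched. Sun1 (ENSRNOG00000001299) was at 924, 912 and 946 in cLTP cultures and 977, 920 and 951 in DMSO cultures. The groups overlapped, and the fold was 0.977 with a 95% interval from 0.877 to 1.09 (adjusted p = 0.852, or 0.726 with the block). Sun2 (ENSRNOG00000015177) was at 938, 1097 and 768 in cLTP cultures and 743, 849 and 632 in DMSO cultures. Its groups overlapped because culture 2 was high and culture 3 low in both. Each cLTP library exceeded the DMSO library of the same number by a similar log2 difference (0.34, 0.37 and 0.28), a pairing that the labels do not give. The fold was 1.26 (95% interval 0.994 to 1.59, adjusted p = 0.251), and with the block the adjusted p was 0.000326. Astrocyte marker sums followed part of that order, with 182214, 191084 and 134893 in cLTP 1, 2 and 3 and 183905, 179969 and 116555 in DMSO 1, 2 and 3, and their part in the level of Sun2 was not tested. Without culture 3 of both groups Sun2 passed (adjusted p = 0.0452).

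**Figure D3:**
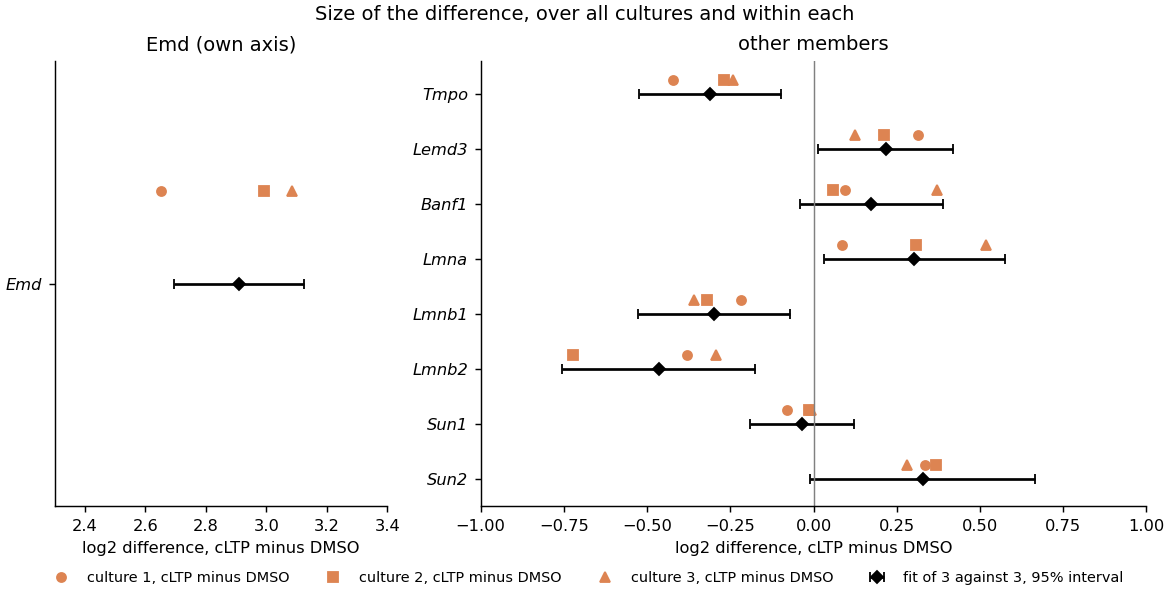
Log2 difference of each member, cLTP minus DMSO, from the fit of 3 against 3 libraries (black, with 95% interval) and between libraries of the same number (orange). Emd is drawn on its own axis, which does not start at 0, and its interval is a description, since it was chosen for its difference. Sun2 has a wide interval but nearly equal differences between libraries of the same number, a pairing that the labels do not give. Tmpo, Lmnb1 and Lmnb2 lie left of 0 throughout.

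Related genes were followed through 7 lists of 112 genes taken for their known function, 5 lists of the nuclear envelope itself, 1 of partners of its proteins and 1 of actin and SRF genes. Of the 112, 107 had a row (5 of them by a synonym) and 104 were tested. Of the 75 tested envelope genes 2 were higher and 3 lower, with a median log2 fold change of -0.02, where 5.71% of all genes were higher and 3.31% lower. The block gave 7 higher and 12 lower of the 75, where it called 12.9% of all genes higher and 10.7% lower. Of the 29 genes of the partner and actin lists 5 were higher and 0 lower, and the block gave 5 higher and 5 lower. The same shares of all genes are the background of each list below. Lemd1, Syne1, Seh1l, Chmp4b and Mrtfb were not analysed here, and Banf2, Sun3 and Sun5 were too low to test.

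The LINC complex list, with nesprins, further SUN genes and torsins, had 1 of 10 tested genes higher and 0 lower, and the block added Tor1aip1 and Tor1aip2 as higher (adjusted p = 0.0113 and 0.0332). The gene that passed without the block was Spag4 (ENSRNOG00000048056), which encodes the SUN domain protein SUN4 and is known mainly from the testis. Spag4 had 546, 552 and 437 normalised read counts in cLTP cultures, against 79.9, 79.9 and 70.9 in DMSO cultures. All cLTP libraries were above all controls by a wide margin, with means of 512 ± 64.5 in cLTP and 76.9 ± 5.20 in DMSO cultures (SD, n = 3 each; 6.56-fold, log2 fold change 2.71, SE 0.12, limma adjusted p = 3.65e-06). Its promoter held 4 TGACG cores, 2 on each strand. Thus a SUN gene outside the member set had a fold close to that of Emd, while Sun1 was near its control level. A test of the difference between these genes was not made.

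Of 29 nuclear pore genes tested, 1 was higher and 2 were lower. Ranbp2 (ENSRNOG00000000796), which encodes the large SUMO ligase on the cytoplasmic filaments of the pore, was at 5631, 7229 and 5390 in cLTP cultures and 3176, 2853 and 3017 in DMSO cultures (2.00-fold, adjusted p = 0.000746). Its promoter also held 4 TGACG cores. Nup62, a protein of the central channel, was at 353 ± 22.5 in cLTP and 499 ± 26.6 in DMSO cultures (0.708-fold, adjusted p = 0.00804). Nup205, a scaffold protein of the inner ring, was at 341 ± 19.3 and 446 ± 27.9 in cLTP and DMSO cultures (0.765-fold, adjusted p = 0.0288), and did not pass on leaving out any of cLTP 1, 2 and 3 or DMSO 1 and 3 (0.0525 to 0.126), or culture 3 of both groups (0.0704). The list had a median log2 fold change of -0.09, and the block gave 3 higher and 7 lower pore genes.

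The other lists held few calls. Among LEM family genes and regulators of BAF, 1 of 7 was lower: Ppp4r2, a subunit of the phosphatase that acts on BAF, was at 1171 ± 76.8 in cLTP and 1462 ± 40.6 in DMSO cultures (0.800-fold, adjusted p = 0.0307), and did not pass on leaving out any of cLTP 1 and 3 or DMSO 1, 2 and 3 (0.0558 to 0.134). The block gave 0 higher and 2 lower in this list, Ppp4r2 and Ankle1. Among 14 partners of emerin, LAP2 and MAN1, Ythdc1, a nuclear reader of m6A that binds emerin, was higher at 1338 ± 77.2 in cLTP and 991 ± 21.2 in DMSO cultures (1.35-fold, adjusted p = 0.00697). It was the only call among the partners without the block, with which 2 were higher (Ythdc1, Smad1) and 4 lower (Bclaf1, Smad2, Smad3, Smad5). Of 19 inner membrane and lamin processing genes and 10 genes of nuclear envelope sealing, 0 passed in limma, edgeR and DESeq2; at an unadjusted p under 0.05 there were 2 and 1 in limma, all lower, and with the block 2 lower, and 1 higher and 1 lower.

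Emerin and A-type lamins influence actin and thereby the MRTF coactivators of SRF, so genes of that route were included as well. Of 15 tested, 4 were higher and 0 lower, and the block gave 3 higher and 1 lower. Mkl1, which encodes the coactivator MRTF-A, was at 628, 509 and 567 in cLTP cultures and 714, 668 and 842 in DMSO cultures. All its cLTP values were below all DMSO values (0.767-fold, adjusted p = 0.0736, or 0.000641 with the block), and it was named after its values were seen. Tpm4, a tropomyosin, was at 1110 ± 118 in cLTP and 424 ± 41.6 in DMSO cultures (2.61-fold, adjusted p = 6.3e-05), and Srf itself was higher 1.69-fold (adjusted p = 0.00288). Cyr61, a secreted matricellular protein, was at 1400, 968 and 1002 in cLTP cultures and 158, 217 and 49.2 in DMSO cultures (9.22-fold, adjusted p = 0.0142), and did not pass with the block (0.0943). Zyx, the focal adhesion protein zyxin, was higher 1.21-fold (adjusted p = 0.0417), a call that was lost on leaving out any 1 library (0.0887 to 0.120), without culture 3 (0.0696), with equal totals (0.188), with quantile normalization (0.103) and with no filter on low values (0.0597).

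**Figure D4:**
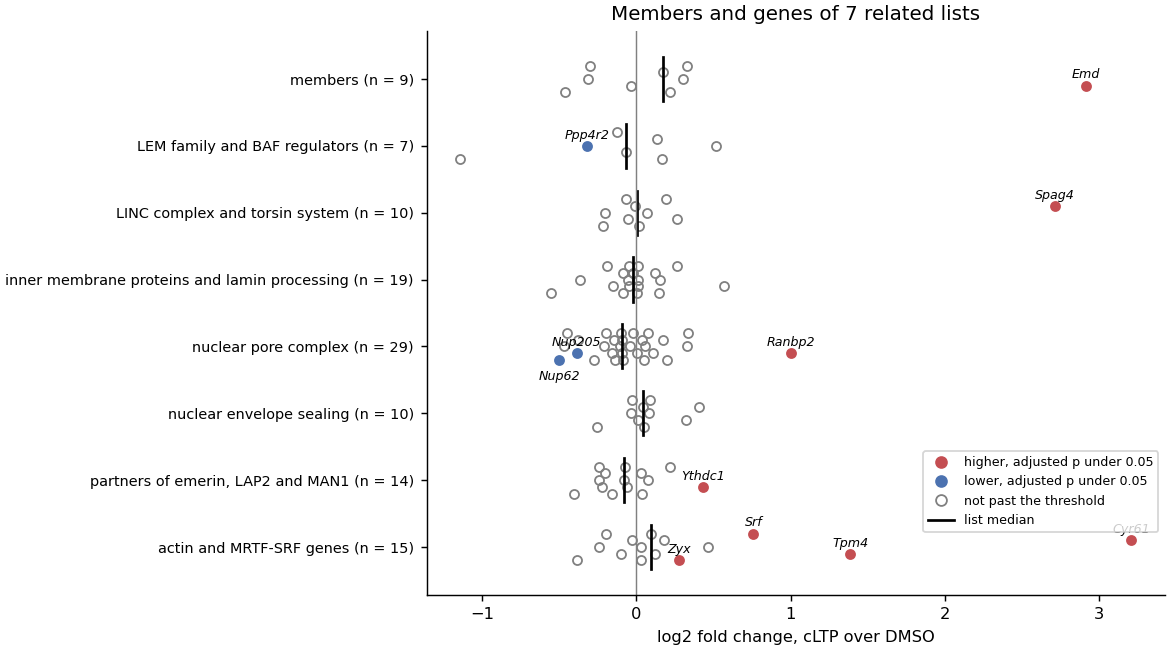
Log2 fold change, cLTP over DMSO, of the 9 members and of the tested genes of the 7 lists; filled points passed an adjusted p of 0.05 in limma (red higher, blue lower), open points did not, and black lines are list medians. Emd (2.91) and Spag4 (2.71) lie far right of the other genes of their rows, and Cyr61 (3.20), in the actin row, lies farther still. Emd was chosen for its difference, so its filled point is a description and not a test.

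The genes next to Emd were examined because neighbours can share regulation. In the GRCr8 gene order, the protein-coding neighbours are Opn1mw, Tex28, Tktl1 and Flna on one side and Rpl10, Dnase1l1, Tafazzin and Atp6ap1 on the other, and 5 of these 8 were tested. None of the 5 passed in limma, edgeR or DESeq2, and 0 had an unadjusted p under 0.05 in limma; with the block 1 was higher (Rpl10). Flna, the nearest on one side, which encodes the actin crosslinker filamin A, was at 4366, 5118 and 4002 in cLTP cultures and 4106, 3606 and 2315 in DMSO cultures. The groups overlapped (1.38-fold, adjusted p = 0.238). Rpl10, the nearest on the other side and a ribosomal protein gene whose reads can be shared with pseudogenes, was at 3687 ± 351 in cLTP and 3132 ± 359 in DMSO cultures (1.18-fold, adjusted p = 0.243, or 0.000777 with the block). Dnase1l1, Tafazzin (Taz in the table) and Atp6ap1 had folds of 1.12, 0.997 and 1.09. Tktl1 was not analysed here, Tex28 was listed at 0 in all libraries, and Opn1mw had 1 read in each of cLTP 2 and cLTP 3.

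The genes with profiles most like that of Emd over the 6 libraries were found by the root mean square difference of log2(value + 1) after subtracting each gene's mean. The search covered genes at or above the median level of 195 with an established symbol. Names that begin with LOC, RGD, AABR, ENSRNOG or AC and a digit were left out, so a gene without such a symbol may lie closer. They were Itpkc (0.103), an inositol trisphosphate 3-kinase, Fosl2 (0.120), an AP-1 subunit, Gadd45g (0.134), a stress response gene, Ptp4a1 (0.147), a phosphatase, and Zdbf2 (0.150), a zinc finger gene. Itpkc, the nearest, was at 1656, 1902 and 1601 in cLTP cultures and 276, 242 and 215 in DMSO cultures. Their promoters held 1 core in Itpkc, 0 in Fosl2, 0 in Gadd45g, 2 in Ptp4a1 and 3 in Zdbf2, so none of them reached the 4 of Emd. In Zdbf2, however, 2 of the 3 cores form 1 full CRE, which Emd lacks.

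Because Emd, Spag4 and Ranbp2 all had 4 cores, calls were counted over all genes by the number of TGACG cores, a count made after these promoters were seen. The other list genes called higher had fewer cores: 1 each in Cyr61 (Ccn1 in RefSeq), Srf and Ythdc1, 2 in Tpm4 and 0 in Zyx. Core numbers of list genes called lower or not called are not given gene by gene, so the lists alone allow no comparison. Among 10596 tested genes with a single promoter row, 6.12% were higher after cLTP. The share was 4.04% of 7356 genes with 0 cores, 7.98% of 2355 with 1, 14.5% of 660 with 2, 24.2% of 178 with 3 and 51.1% of 47 with 4 or more (24 genes). Emd, Spag4 and Ranbp2, which prompted the count, are among the 24, and without them the share was 47.7% (21 of 44). The share of lower genes was 4.30%, 2.59%, 2.12%, 0.562% and 0% over the same classes. Promoters with more cores also held more CpG (a median of 18 with 0 cores and 29 with 4 or more), and their genes had higher levels (a median of 241 and 851). Within genes at or above the median CpG count, the shares of higher genes were 4.81%, 8.57%, 14.6%, 25.0% and 52.2%. That part held 46 of the 47 genes with 4 or more cores and 132 of the 178 with 3. TGACG itself contains a CpG, so this split cannot tell the number of cores apart from CpG content. The part of expression level in this order was not tested.

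**Figure D5:**
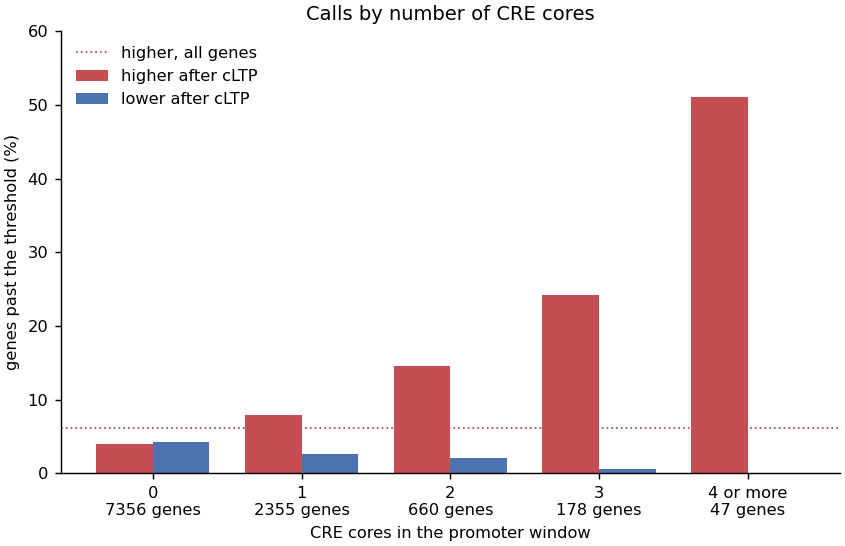
Share of tested genes past an adjusted p of 0.05 in limma, higher (red) or lower (blue) after cLTP, by the number of TGACG cores in the promoter window; the number of genes is given under each class and the dotted line marks the share of higher genes over all 10596. The red bars climb to 51.1% in the class of 47 genes that holds Emd (47.7% without Emd, Spag4 and Ranbp2, which prompted the count), and the blue bars shrink to 0.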

How the data were processed

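The authors deposited a normalised signal for every gene in each library. The submitters' processing notes name build rn6 and the tools STAR, bcl2fastq and DESeq2. Versions, counting tool, strand setting and annotation are not stated in the sources used. Part of the labels' library text names sorted cells of operated animals, unlike the cultures named elsewhere. All values above 0 (100% in each library) equalled a whole number of reads within a tolerance of 0.01, so whole reads were recovered for the count tests; a value of 3 reads is 2.63 to 3.38.

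The main test was limma 3.58.1 (R 4.3.3; trend and robust eBayes, two-sided) on log2(value + 1), which understates changes of low genes, for the 17315 genes whose mean reached 1, in 3 cLTP against 3 DMSO libraries, with Benjamini-Hochberg adjustment over all genes and a threshold of 0.05. On the recovered reads, edgeR 4.0.16 (quasi-likelihood) called 975 genes higher and 648 lower, and DESeq2 1.42.0 called 1072 and 570. The scripts were tested on simulated data.

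The labels call the cultures biological replicates but name no litters, so the p-values reflect only how far these cultures vary. Once group means were removed, the correlation of same-numbered libraries over genes was 0.22, 0.30 and 0.54, all above 0.1, so libraries sharing a number were treated as pairs. Unlike numbers also correlated between cultures 1 and 2 (0.19 and 0.16), and culture 3 against the others gave -0.37 to -0.29, so the check mainly set culture 3 apart. Values with this block stand beside members and lists whose calls it changes.

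The members and lists were chosen with earlier results of these data known. Named genes are the members, list genes past the threshold (all where a list had 4 or fewer), 4 neighbours on each side of Emd and the 5 genes most like it; the motifs searched, the promoters shown, the hippocampal markers and the count by TGACG cores were chosen after the files were seen. Promoter sequences are from RefSeq (GRCr8), and 9 of 10 members matched by symbol.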

Additional observations from a re-analysis of the deposited data

How the results depend on the processing

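No member changed sign under any of the 16 alternatives run over the whole table, and the log2 fold change of Emd, a description, lay between 2.79 and 3.00. Counts of members here include Emd, chosen for its difference. With the replicate block, 2225 genes were higher and 1850 lower over the whole table, 4 members higher and 3 lower, and 12 genes of the 7 lists higher and 17 lower. Scaling to equal totals moved the median of all genes to -0.11 on the log2 scale and gave 823 higher and 1322 lower genes, against 988 and 573 as deposited (quantile normalization gave 897 and 799); 3 members (Tmpo, Lmnb1, Lmnb2) and 12 list genes were then called lower. Lower members numbered 1 in edgeR, 1 with a mean value of at least 10, and 2 without culture 3 of both groups, where 2 were higher. Lower list genes numbered 8 with quantile normalization, 5 with DESeq2 and 5 without culture 3. Leaving out 1 library at a time gave 704 to 939 higher and 227 to 469 lower genes (under 382 without cLTP 1, cLTP 3, DMSO 1 or DMSO 2), 1 higher and 0 lower members, and 1 to 3 lower list genes. These fits have fewer samples. The cause of the other changes was not tested. With 88 to 172 reads per library, Lmnb2 was the member measured with the least depth.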

Other observations

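Of the 47 genes with 4 or more TGACG cores in the promoter window, the largest fitted increases, named here after their values were seen, were those of Nr4a1 (4.78 on the log2 scale), Ell2 (3.11), Emd (2.91), Spag4 (2.71), Tinf2 (2.61) and Zgrf1 (2.48). Ell2 encodes a transcription elongation factor and Tinf2 a telomere protein of the shelterin complex. Tinf2 averaged 1213 normalised read counts in cLTP cultures and 199 in DMSO cultures, and Ell2 averaged 2733 in cLTP cultures and 314 in DMSO cultures (n = 3 each; limma adjusted p = 3.7e-06 and 1.31e-05).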
